A study of Mus musculus with 9 samples.

Results

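The genes described here are 10 genes of fibroblast growth factor (FGF) signaling and of the feedback on its downstream kinase ERK, chosen by name and found in the files by Ensembl identifier among 49585 genes listed. They are the receptor genes Fgfr1, Fgfr2 and Fgfr3, the FGF carrier gene Fgfbp1, the Sprouty genes Spry1, Spry2 and Spry4, the ERK phosphatase gene Dusp6 and the ETS transcription factor genes Etv4 and Etv5. Their RNA was sequenced in 9 libraries of prostate basal cells, flow-sorted from C57BL/6J mice and grown as organoids for 5 days. RD7 organoids (3 libraries) received 500 ng/ml of R-spondin1, which amplifies Wnt signaling, and 100 nM of the androgen dihydrotestosterone (DHT). R organoids (3 libraries) received 500 ng/ml of R-spondin1 without DHT. BM organoids (3 libraries) received neither. All 3 media held EGF at 50 ng/ml, the BMP antagonist Noggin at 100 ng/ml, the TGF-β receptor inhibitor A83-01 at 200 nM and the ROCK inhibitor Y-27632 at 10 μM, and the recipe names no FGF. DHT was not given without R-spondin1, and the labels leave unsaid if replicate libraries stem from different mice, so p-values measure the spread between these samples only.

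FGF receptors are tyrosine kinases that pass their signal through adaptor proteins to the RAS, RAF, MEK and ERK cascade. Active ERK induces the genes of its own inhibitors, among them Sprouty proteins and the phosphatase DUSP6, and the genes of the ETS factors ETV4 and ETV5. EGF receptors feed the same cascade, so the feedback genes answer to ERK activity and not to FGF alone. In the prostate, FGFs made by the stroma act on FGFR2 of the epithelium during budding and growth, and androgens regulate that growth.

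Expression is given as FPKM, reads per kilobase of gene, scaled to the reads of the library, with the mean ± SD over n = 3 libraries of a group. Log2 fold changes (± SE) are differences of log2(FPKM + 0.5), which understates the change of genes with low FPKM. They come from limma fitted to 15899 genes, and a gene was called at a Benjamini-Hochberg adjusted p under 0.05 over those genes. Libraries held 6505859 (BM 1) to 24141017 (BM 2) counted reads. All 10 genes passed the filter on low values, and the least counted, Spry2, had 33 reads in BM 1. The Wnt target Axin2 rose 12.2-fold in R against BM, and the androgen-response gene Fkbp5 rose 25.5-fold in RD7 against R. The basal keratin Krt5 averaged 2397 FPKM in RD7, 3484 in R and 2600.5 in BM, so basal marker RNA was abundant in all groups. Summed leukocyte markers reached 2.13 to 4.09 FPKM in RD7, 2.87 to 3.78 in R and 0.856 to 1.61 in BM. The general leukocyte marker Ptprc was at no more than 0.00646 FPKM in any library, while 2 of the 5 markers, Cd68 and Lyz2, were called higher in R against BM and in RD7 against BM. Summed endothelial markers stayed at or under 0.295 FPKM and summed neuroendocrine markers at or under 0.579 FPKM in every library, and the part of these markers in the results was not tested. Deviations of log2 expression followed gene length across genes, with a Spearman correlation of -0.38 (RD7 2) to -0.16 in RD7, -0.18 to 0.20 in R and -0.01 (BM 3) to 0.42 in BM, so longer genes tended to be lower in RD7 libraries and higher in BM 1 and BM 2.

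Promoter windows cover the annotated transcription starts of the genes, and starts were not measured here. They run from 250 bases before to 50 bases after the transcription start in RefSeq on build GRCm38.p6. Windows of 7 of the 10 genes were examined, and those of Fgfr1, Spry4 and Etv4 were not. Dusp6 (chr10:99262981-99263280, plus strand) and Etv5 (chr16:22439521-22439820, minus strand) are printed because both fell with DHT, Fgfbp1 (chr5:43981750-43982049, minus strand) because it rose, and Spry1 (chr3:37639697-37639996, plus strand) because it was called in no comparison. Etv5 and Fgfr3 had 2 windows each, and window 1 of Etv5 is printed. Capitals mark CCAAT on either strand and TATAAA.
Dusp6: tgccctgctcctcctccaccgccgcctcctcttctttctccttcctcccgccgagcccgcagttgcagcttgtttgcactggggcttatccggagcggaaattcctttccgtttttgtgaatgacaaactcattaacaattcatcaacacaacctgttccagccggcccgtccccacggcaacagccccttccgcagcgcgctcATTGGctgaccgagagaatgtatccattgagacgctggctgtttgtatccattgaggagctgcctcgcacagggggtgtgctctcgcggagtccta
Etv5: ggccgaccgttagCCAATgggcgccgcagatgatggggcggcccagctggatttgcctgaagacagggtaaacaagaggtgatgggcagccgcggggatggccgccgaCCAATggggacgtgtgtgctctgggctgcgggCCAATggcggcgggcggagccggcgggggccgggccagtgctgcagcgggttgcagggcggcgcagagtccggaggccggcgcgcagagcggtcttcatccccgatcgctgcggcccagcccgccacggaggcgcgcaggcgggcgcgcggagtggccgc
Fgfbp1: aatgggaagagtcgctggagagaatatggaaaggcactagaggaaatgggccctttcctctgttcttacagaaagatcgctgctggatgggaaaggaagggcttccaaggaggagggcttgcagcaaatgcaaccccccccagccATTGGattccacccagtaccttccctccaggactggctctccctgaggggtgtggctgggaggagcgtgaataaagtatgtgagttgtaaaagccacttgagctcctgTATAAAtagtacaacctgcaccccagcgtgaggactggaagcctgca
Spry1: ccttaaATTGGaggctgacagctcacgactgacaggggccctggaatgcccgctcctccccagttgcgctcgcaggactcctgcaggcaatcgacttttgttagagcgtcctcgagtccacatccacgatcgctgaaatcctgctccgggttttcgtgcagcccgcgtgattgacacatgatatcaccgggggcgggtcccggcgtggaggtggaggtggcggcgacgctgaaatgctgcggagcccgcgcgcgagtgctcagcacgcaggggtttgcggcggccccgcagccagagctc
Etv5 held CCAAT at 3 places in this window, and the other windows printed held it at 1 place each. Of 32851 windows in the table, 37.4% held CCAAT on either strand. TATAAA stood in the Fgfbp1 window, just after the RefSeq start, and in 13.6% of all windows. The gene span given below for Fgfbp1 starts at 43981779 (minus strand), and TATAAA lies before that start. The ETS motif CCGGAAG (8.86% of all windows), the AP-1 motif TGANTCA (7.81%), the TCF/LEF motif CTTTGAT (3.73%) and the steroid receptor motif (AGAACA, 3 bases of any kind, then TGTTCT; 0.00913%) matched on neither strand of any window of the 7 genes. The motifs overlap each other nowhere in the printed windows, and the letters alone do not show binding.

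Adding DHT to R-spondin1 lowered the ERK phosphatase gene and both ETS factor genes and raised the FGF carrier gene. In RD7 against R, Dusp6, Etv4 and Etv5 fell, Fgfbp1 rose, and the other 6 genes were not called. That is 4 of 10 genes, where 31.1% of all genes tested were called, and the median log2 fold change was -0.46 over the 10 genes and -0.09 over all genes tested. The libraries of RD7 and R did not overlap for 6 of the 10 genes, where they did not for 51.8% of all genes, and for 30.1% with RD7 the lower group. R-spondin1 alone moved 1 of the 10: in R against BM, Etv4 rose, where 9.99% of all genes were called (4.37% higher and 5.62% lower). The libraries of R and BM did not overlap for Fgfr3, Etv4 and Etv5, as for 30.2% of all genes. In RD7 against BM, Fgfr1, Spry4, Dusp6, Etv4 and Etv5 fell and Fgfbp1 rose, which is 6 of 10, where 46.9% of all genes were called (25.3% lower). The libraries of RD7 and BM did not overlap for these 6 and for Spry1, which is 7 of 10, as for 52.3% of all genes (29.3% with RD7 the lower group). RD7 against R and R against BM share the R libraries, and RD7 against BM is their sum, so the comparisons are not independent of each other. The 10 genes were chosen with earlier results of these data known, so these counts are not an independent test. The count for R against BM was 4 without BM 3, when Fgfr3, Fgfbp1 and Etv5 were called too.

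**Figure D1:**
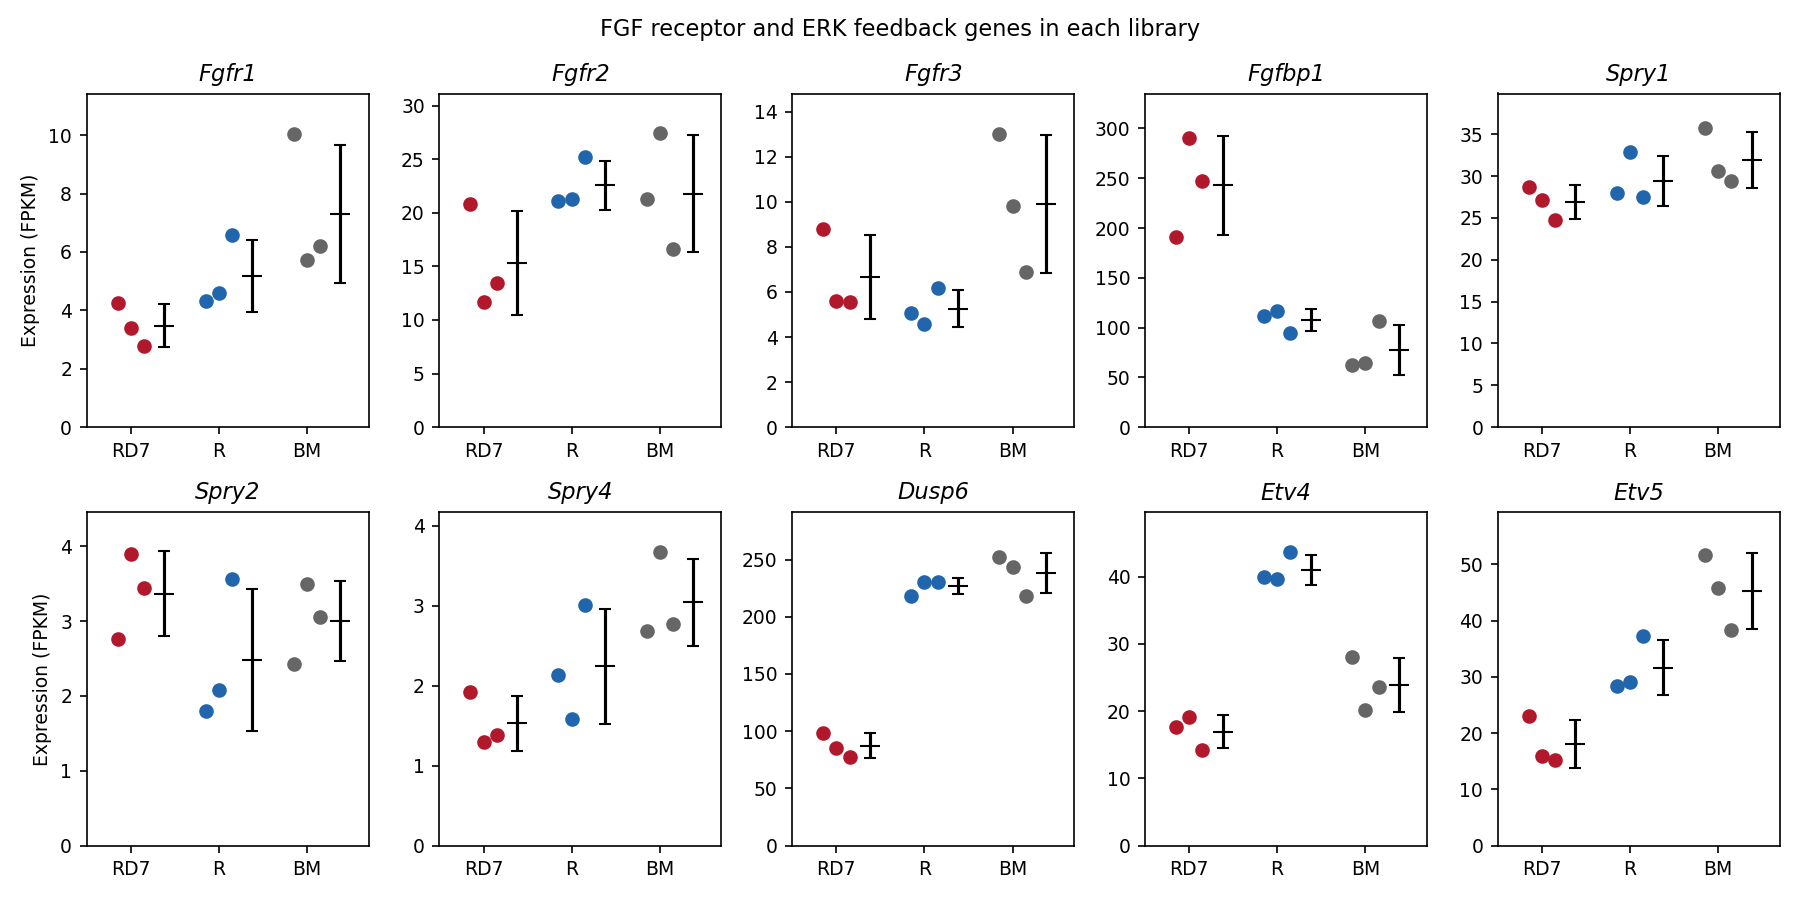
FPKM (vertical axes, starting at 0) of the 10 genes in each of the 9 libraries, with RD7 in red, R in blue and BM in grey; black bars give the mean ± SD of 3 libraries. Dusp6 lies between 77.3 and 98.7 FPKM in RD7 and at 218 FPKM or more in all R and BM libraries.

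**Figure D2:**
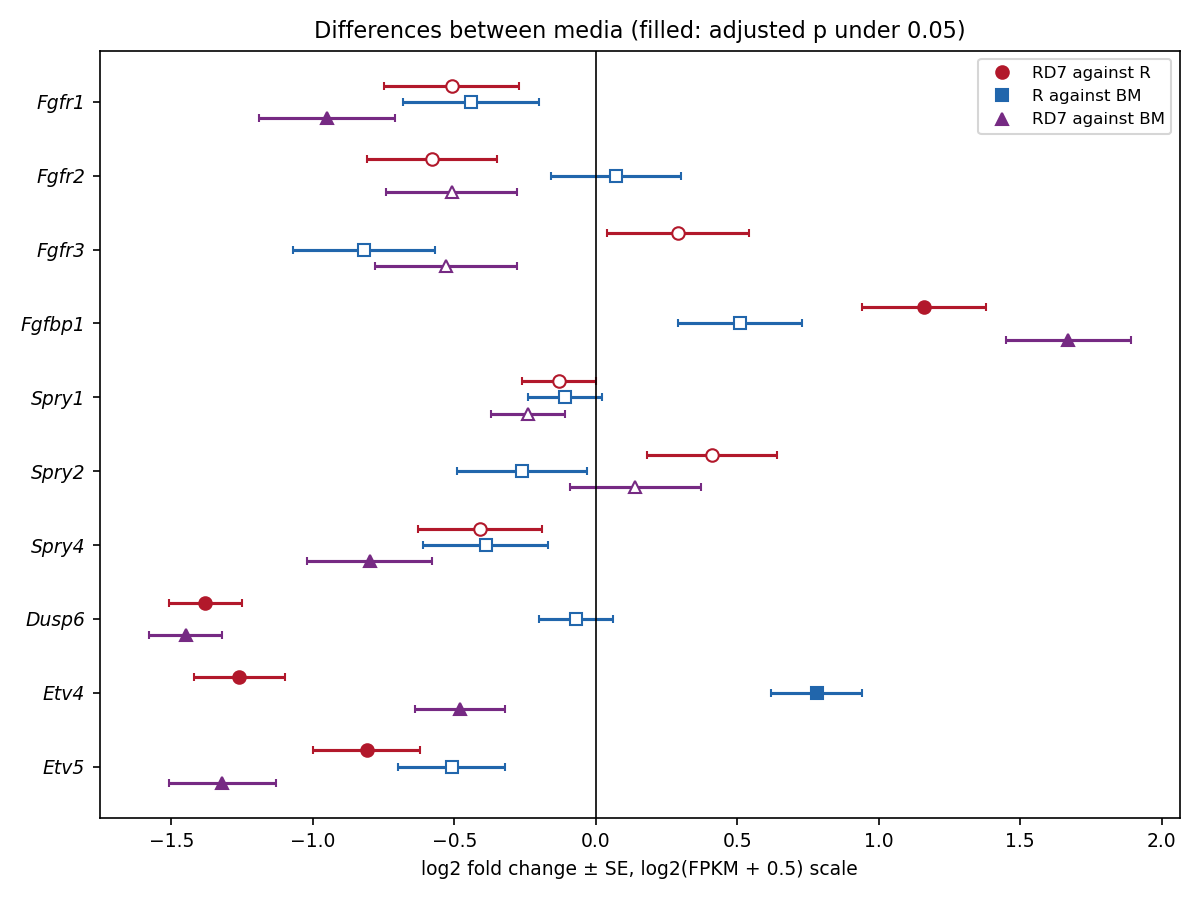
Log2 fold change (horizontal axis, ± SE, log2(FPKM + 0.5) scale) of each gene in RD7 against R (circles), R against BM (squares) and RD7 against BM (triangles), with filled symbols for an adjusted p under 0.05. Etv4 is the gene with a filled symbol on either side of 0, at 0.78 in R against BM and -1.26 in RD7 against R.

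Among the receptors, Fgfr2 had the highest level in every library. Fgfr2 (chromosome 7, 130162451 to 133123350), whose epithelial splice form binds stromal FGFs, stood at 20.8, 11.7 and 13.5 FPKM in RD7 1 to 3, at 21.1, 21.3 and 25.2 in R 1 to 3, and at 21.3, 27.4 and 16.6 in BM 1 to 3. RD7 lay below R in all libraries, and the BM libraries overlapped both other groups. The log2 fold change of RD7 against R was -0.58 ± 0.23 (limma adjusted p = 0.081), so Fgfr2 was not called, but it was without RD7 1 (-0.81, limma adjusted p = 0.018) and without BM 3 (limma adjusted p = 0.046). R against BM gave 0.07 ± 0.23 and RD7 against BM -0.51 ± 0.23 (limma adjusted p = 0.86 and 0.094), and the second was called without RD7 1 (limma adjusted p = 0.018) and without BM 3 (0.027). Once the length trend of the libraries was removed, RD7 against R gave -0.38 (limma adjusted p = 0.10). Over the 19 other settings tried, the limma adjusted p of RD7 against BM reached up to 0.62. The files hold 1 value per gene, so the epithelial and mesenchymal splice forms were not told apart. The annotated span of Fgfr2 runs far beyond its RefSeq promoter window (chr7:130266759-130267058, minus strand). Ctbp2, on the same strand, shares 3.04% of Fgfr2 exon bases. Of the 5 basal markers, Krt5, Trp63 and Itga6 fell in RD7 against R, and Krt14 and Krt15 were not called. Krt15 rose in R against BM. In RD7 against BM, Krt15 rose and Trp63 and Itga6 fell. Summed, the basal markers reached 8310 to 9410 FPKM in RD7, 9690 to 10300 in R and 7040 to 7920 in BM, and their part in the Fgfr2 values was not tested.

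Fgfr1 (chromosome 8, 25513654 to 25575718), a receptor gene broadly expressed in mesenchyme, fell in RD7 against BM. It stood at 4.24, 3.40 and 2.78 FPKM in RD7, at 4.32, 4.61 and 6.58 in R and at 10.0, 5.72 and 6.19 in BM. Every RD7 library lay below every BM library, and BM 1 was the highest of all. RD7 against BM gave -0.95 ± 0.24 (limma adjusted p = 0.011), which was -0.57 with an adjusted p of 0.058 once the length trend of the libraries was removed. RD7 against R (-0.51 ± 0.24, limma adjusted p = 0.13) and R against BM (-0.44 ± 0.24, limma adjusted p = 0.27) were not called. Of 9 mesenchymal markers tested, 4 fell (Vim, Col3a1, Pdgfrb and Acta2) and 1 rose (Dcn, which encodes the matrix proteoglycan decorin) in RD7 against BM, where 46.9% of all genes were called, and no marker was at 0 in all libraries. Their summed level was at least 67.3 FPKM in RD7, 24.5 to 30.5 in R and 18.6 to 26.9 in BM, and without Dcn it was 2.73 to 3.35 in RD7, 4.94 to 6.80 in R and 14.7 to 20.6 in BM. Their part in the Fgfr1 difference was not tested, and in bulk RNA fewer cells of a type and less RNA per cell cannot be told apart.

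Fgfr3 (chromosome 5, 33721674 to 33737068), a receptor with roles in urothelial and squamous epithelium, was called in no comparison. It stood at 8.81, 5.58 and 5.57 FPKM in RD7, at 5.06, 4.57 and 6.17 in R and at 13.0, 9.81 and 6.88 in BM. The R libraries lay below all BM libraries, and RD7 overlapped both. R against BM gave -0.82 ± 0.25 (95% interval -1.37 to -0.27) with a limma adjusted p of 0.067, and without BM 3 it was called at -1.04 (limma adjusted p = 0.011). RD7 against BM gave -0.53 ± 0.25 (limma adjusted p = 0.10) and was called without RD7 1 (limma adjusted p = 0.037) and without BM 3 (0.018). Over the 19 other settings tried, the limma adjusted p of RD7 against BM reached up to 0.43. The opposite-strand gene G630022F23Rik shares 13.9% of Fgfr3 exon bases. The kit does not mark strand, so reads of that shared stretch cannot be told apart, and how they were counted is not given.

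Fgfbp1 (chromosome 5, 43978858 to 43981779) encodes a secreted protein that carries FGFs out of the extracellular matrix, and it was the gene of the set that rose with DHT. It reached 191, 290.2 and 247 FPKM in RD7 1 to 3, against 112, 117 and 94.6 FPKM in R 1 to 3. BM 1 to 3 stood at 62.3, 64.1 and 106 FPKM. The lowest RD7 library exceeded the highest library of R and BM, while BM 3 fell inside the range of R. Fgfbp1 averaged 243 ± 49.7 FPKM in RD7 and 108 ± 11.5 in R (n = 3 each), a 2.26-fold rise with a log2 fold change of 1.16 ± 0.22 (limma adjusted p = 0.0037), where 13.3% of all genes were called higher. Against BM the rise was 3.13-fold (1.67 ± 0.22, limma adjusted p = 3.5e-04). R against BM gave 0.51 ± 0.22 (limma adjusted p = 0.19), and without BM 3 it was called at 0.76 (limma adjusted p = 0.015).

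The Sprouty genes encode inhibitors of receptor tyrosine kinase signaling upstream of ERK, and with DHT (RD7 against R) they stayed short of the threshold. Spry1 (chromosome 3, 37639947 to 37644598) was the most expressed, at 28.7, 27.2 and 24.7 FPKM in RD7, 27.9, 32.9 and 27.5 in R and 35.7, 30.6 and 29.4 in BM. Its groups overlapped except that RD7 lay below BM. RD7 against R gave -0.13 ± 0.13 (95% interval -0.42 to 0.17, limma adjusted p = 0.50), R against BM -0.11 ± 0.13 (-0.41 to 0.18, limma adjusted p = 0.61) and RD7 against BM -0.24 ± 0.13 (-0.54 to 0.06, limma adjusted p = 0.16). An antisense gene, Gm42922, shares 24.4% of Spry1 exon bases. Reads of that shared stretch cannot be told apart, and how they were counted is not given.

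Spry2 (chromosome 14, 105891947 to 105896819) was expressed about an order of magnitude below Spry1. It stood at 2.76, 3.89 and 3.44 FPKM in RD7, 1.80, 2.08 and 3.57 in R and 2.43, 3.50 and 3.06 in BM, and all groups overlapped. Its log2 fold change was 0.41 ± 0.23 in RD7 against R (95% interval -0.11 to 0.92), -0.26 ± 0.23 in R against BM and 0.14 ± 0.23 in RD7 against BM, with limma adjusted p of 0.21, 0.49 and 0.62.

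Spry4 (chromosome 18, 38586247 to 38601415) was expressed at a level near that of Spry2 and fell in RD7 against BM. It stood at 1.92, 1.29 and 1.38 FPKM in RD7, 2.13, 1.58 and 3.01 in R and 2.68, 3.67 and 2.77 in BM. RD7 lay below BM in all libraries, and R overlapped both. RD7 against BM gave -0.80 ± 0.22 (limma adjusted p = 0.015). The call was lost without RD7 2, RD7 3 or BM 2, with limma adjusted p of 0.054, 0.050 and 0.053. RD7 against R (-0.41 ± 0.22, limma adjusted p = 0.18) and R against BM (-0.39 ± 0.22, limma adjusted p = 0.28) were not called.

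Dusp6 (chromosome 10, 99263231 to 99267489), which encodes a cytoplasmic phosphatase that inactivates ERK, had the furthest fall of the set with DHT. It stood at 98.7, 85.7 and 77.3 FPKM in RD7 1 to 3, against 218, 231 and 231 FPKM in R 1 to 3. BM 1 to 3 stood at 253, 244 and 218 FPKM. R and BM overlapped, and every RD7 library lay below every library of those groups. The mean was 87.3 ± 10.8 FPKM in RD7 and 227 ± 7.10 in R (n = 3 each), and the log2 fold change was -1.38 ± 0.13 (limma adjusted p = 2.7e-05), where 17.7% of all genes were called lower. R against BM gave -0.07 ± 0.13 (95% interval -0.36 to 0.22, limma adjusted p = 0.76), and RD7 against BM gave -1.45 ± 0.13 (limma adjusted p = 1.9e-05). The falls in RD7 were called under all 19 other settings tried, with an adjusted p of at most 3.7e-04 against R.

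Etv4 and Etv5 encode ETS factors of the PEA3 group, and Etv4 was called higher with R-spondin1 while Etv5 was not called. Etv4 (chromosome 11, 101769742 to 101785371) stood at 17.6, 19.1 and 14.2 FPKM in RD7, 39.9, 39.6 and 43.6 in R and 28.0, 20.1 and 23.6 in BM. R was the highest group, BM lay between, and RD7 was the lowest, with no overlap between any of them. R against BM gave 0.78 ± 0.16 (limma adjusted p = 0.010), a 1.72-fold rise, where 4.37% of all genes were called higher. RD7 against R gave -1.26 ± 0.16 (limma adjusted p = 2.1e-04). Both were called under all 19 other settings, with adjusted p of at most 0.046 and 0.0017. RD7 against BM gave -0.48 ± 0.16 (limma adjusted p = 0.030), and that call was lost without RD7 3 (limma adjusted p = 0.11), without BM 1 (0.10) and under 3 other settings.

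Etv5 (chromosome 16, 22381309 to 22439719) stood at 23.0, 15.9 and 15.2 FPKM in RD7, 28.5, 29.2 and 37.2 in R and 51.7, 45.9 and 38.3 in BM. BM was the highest group and RD7 the lowest, with no overlap between groups. RD7 against R gave -0.81 ± 0.19 (limma adjusted p = 0.010) and RD7 against BM -1.32 ± 0.19 (limma adjusted p = 5.5e-04), both called under all 19 other settings. R against BM gave -0.51 ± 0.19 (limma adjusted p = 0.13) and was called without BM 3 (-0.63, limma adjusted p = 0.046).

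Ratios between genes within a library do not depend on the scaling of the library, while sums of FPKM do. For 10 ratios and sums in 3 comparisons each, the exact test cannot pass the threshold, and no p was below 0.1. Etv4 over Etv5 was 0.766, 1.20 and 0.932 in RD7, 1.40, 1.36 and 1.17 in R and 0.542, 0.439 and 0.615 in BM, as ratios of FPKM. The R and BM libraries did not overlap (exact two-sided permutation test, p = 0.1, the smallest that 3 against 3 libraries allow). Summed, Etv4 and Etv5 reached 35.0 ± 5.64 FPKM in RD7, 72.6 ± 7.11 in R and 69.2 ± 9.35 in BM (n = 3 each), so that R and BM overlapped in the sum and not in the ratio. Dusp6 over Spry1 was 3.13 to 3.44 in RD7, 7.01 to 8.39 in R and 7.08 to 7.96 in BM. Fgfr2 made up 59.9% ± 2.93 of the summed FPKM of Fgfr1, Fgfr2 and Fgfr3 in RD7, 68.5% ± 1.84 in R and 55.9% ± 7.93 in BM, and the R libraries lay above all others.

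**Figure D3:**
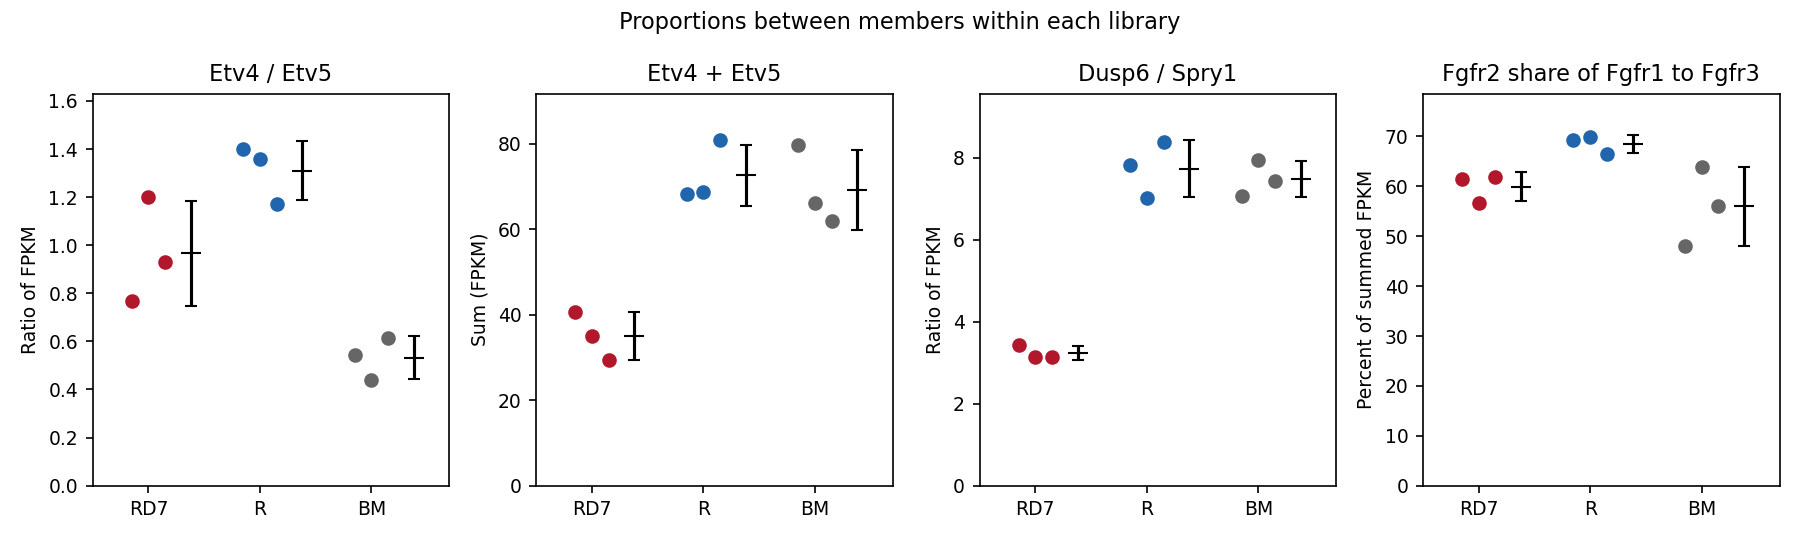
Ratios of FPKM, summed FPKM and percent of summed receptor FPKM (vertical axes, as titled) in each library, with RD7 in red, R in blue and BM in grey; black bars give the mean ± SD of 3 libraries. The Etv4 over Etv5 ratio is 1.17 to 1.40 in R and 0.439 to 0.615 in BM, while their sum overlaps between R and BM.

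Of 22 genes of the FGF family in the files, 6 were tested. The ligands best known from prostate stroma, Fgf7 and Fgf10, were not among them, at no more than 0.210 and 0.0201 FPKM in any library. Fgf1, which binds all FGF receptors, reached 11.1 ± 2.44 FPKM in RD7, 2.27 ± 0.270 in R and 6.52 ± 1.33 in BM. It rose in RD7 against R (log2 fold change 2.05 ± 0.20, limma adjusted p = 3.9e-05) and fell in R against BM (-1.33 ± 0.20, limma adjusted p = 0.0018). Fgf20 also rose in RD7 against R (0.861 ± 0.119 and 0.292 ± 0.0922 FPKM), and Fgf21 (0.199 ± 0.102 and 1.66 ± 0.455 FPKM) fell. Fgf12 fell too, at no more than 0.116 FPKM in RD7 and at 0.286 to 0.505 in R. Reads were few, with 5 for Fgf20 in R 1, and 2 for Fgf21 and 0 for Fgf12 in RD7 2. Fgf12, Fgf20 and Fgf21 did not pass a stricter filter of 2 CPM. Fgf13, whose protein is not secreted and does not act through FGF receptors, fell in R against BM (2.25 ± 0.172 and 6.97 ± 0.557 FPKM). Of 5 other receptor and co-receptor genes tested, the glypican gene Gpc1 fell in RD7 against R (12.2 to 19.2 FPKM in RD7 and 33.0 to 43.5 in R). Fgfrl1, a receptor without a kinase domain, rose (14.0 ± 1.92 and 10.2 ± 0.405 FPKM). Its call was lost when RD7 1, RD7 2 or any R library was left out (highest limma adjusted p 0.12). Fgfr4 stood at no more than 0.0631 FPKM in any library and was not tested.

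Of 10 other ERK response genes tested, 8 fell in RD7 against R and the other 2 were not called. Their median log2 fold change was -0.86, against -0.09 over all genes, of which 17.7% were called lower. The list was chosen with earlier results of these data known, so these counts are not an independent test. The AP-1 gene Fosl1 averaged 5.66 ± 0.425 FPKM in RD7 and 16.9 ± 0.955 in R, the receptor gene Epha2 7.58 ± 2.85 and 17.9 ± 3.56, and Egr1 40.0 ± 7.02 and 70.8 ± 3.25 (n = 3 each). Fosl1, Fos, Egr1, Epha2 and Epha4 were called in all 19 other settings, and 5 to 8 genes were called lower without 1 library. The calls of Ccnd1, Ier3 and Myc were each lost without R 1 or R 2 and without other libraries (limma adjusted p up to 0.14), among them R 3 and RD7 2 for Ccnd1, RD7 1 and RD7 2 for Ier3, and RD7 1, RD7 3, R 3, BM 1 and BM 2 for Myc. Etv1 (6.32 ± 0.639 and 5.77 ± 0.529 FPKM) and Phlda1 (338 ± 142 and 309.8 ± 24.9) were not called. In R against BM, 1 of the 10, Ier3, was called and rose. Leaving out RD7 3, R 1, R 2, BM 1 or BM 2 ended the call (highest limma adjusted p 0.13). In RD7 against BM, 6 of the 10 fell (Epha2, Epha4, Ccnd1, Fosl1, Egr1 and Fos), where 25.3% of all genes were called lower. These calls held under all 19 other settings except for Ccnd1, which was called in 16 of them.

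Of 11 other genes that encode inhibitors of the ERK pathway, 5 fell in RD7 against R and the other 6 were not called. The median log2 fold change of the 11 was -0.47, against -0.09 over all genes, of which 17.7% were called lower. This list, too, was chosen with earlier results of these data known. The ERK phosphatase genes Dusp4 (3.54 to 5.66 FPKM in RD7 and 14.0 to 17.1 in R), Dusp5 (3.75 ± 0.287 and 9.67 ± 1.31) and Dusp9 (2.53 ± 0.272 and 5.35 ± 0.277) fell under all 19 other settings. Rasa1, a RAS GTPase-activating protein gene, and Il17rd, an inhibitor of FGF signaling, fell too, but both calls were lost when RD7 2, RD7 3 or any R library was left out, and that of Il17rd also without RD7 1 (highest limma adjusted p 0.14). Il17rd averaged 0.144 ± 0.0650 FPKM in RD7 and 0.391 ± 0.0876 in R, with 11 reads in RD7 2. Dusp7 (91.1 ± 10.3 FPKM in RD7 and 118 ± 4.56 in R) and Spred2 (9.69 ± 2.77 and 12.9 ± 0.851) were not called. In RD7 against BM, 5 of the 11 fell (Spred1, Dusp4, Dusp5, Dusp9 and Rasa1), where 25.3% of all genes were called lower. Each of these 5 was called under all 19 other settings.

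Genes of the cascade itself were called in both directions. Of 11 RAS, RAF, MEK and ERK genes, Map2k1, a MEK gene, fell in RD7 against R (27.9 ± 2.56 and 48.9 ± 1.78 FPKM, log2 fold change -0.80 ± 0.18, limma adjusted p = 0.0092). Mapk3, an ERK gene, rose (84.0 ± 8.83 and 57.2 ± 1.35 FPKM), and its call was lost when RD7 2, RD7 3 or any R library was left out (highest limma adjusted p 0.084). Among 9 adaptor genes, Frs3 fell (0.487 ± 0.105 and 0.966 ± 0.179 FPKM), with a limma adjusted p of 0.050 without R 1, and the adaptor Grb2 averaged 41.4 and 41.9 FPKM. In R against BM, Frs3 rose, a call lost without R 1, R 3 or BM 2 (highest limma adjusted p 0.10). In RD7 against BM, the adaptor genes Frs2, Sos1, Sos2 and Gab1 fell, Hras and Map2k2 rose, and the feedback gene Spred1 fell (11.1 ± 3.82 and 24.5 ± 6.26 FPKM). Of these 7, Spred1 was called under all 19 other settings. The calls of the other genes were each lost without at least 1 library, RD7 3 for Frs2 (limma adjusted p = 0.059). Sos1 and Sos2 were called in 7 and 8 of the 19 settings. In the settings that kept all libraries, 1 to 4 adaptor genes were called lower. Map2k1 fell and Mapk3 rose in RD7 against BM too, and both calls were lost without RD7 2, RD7 3 or BM 2. Of all genes, 25.3% were called lower and 21.5% higher in RD7 against BM.

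**Figure D4:**
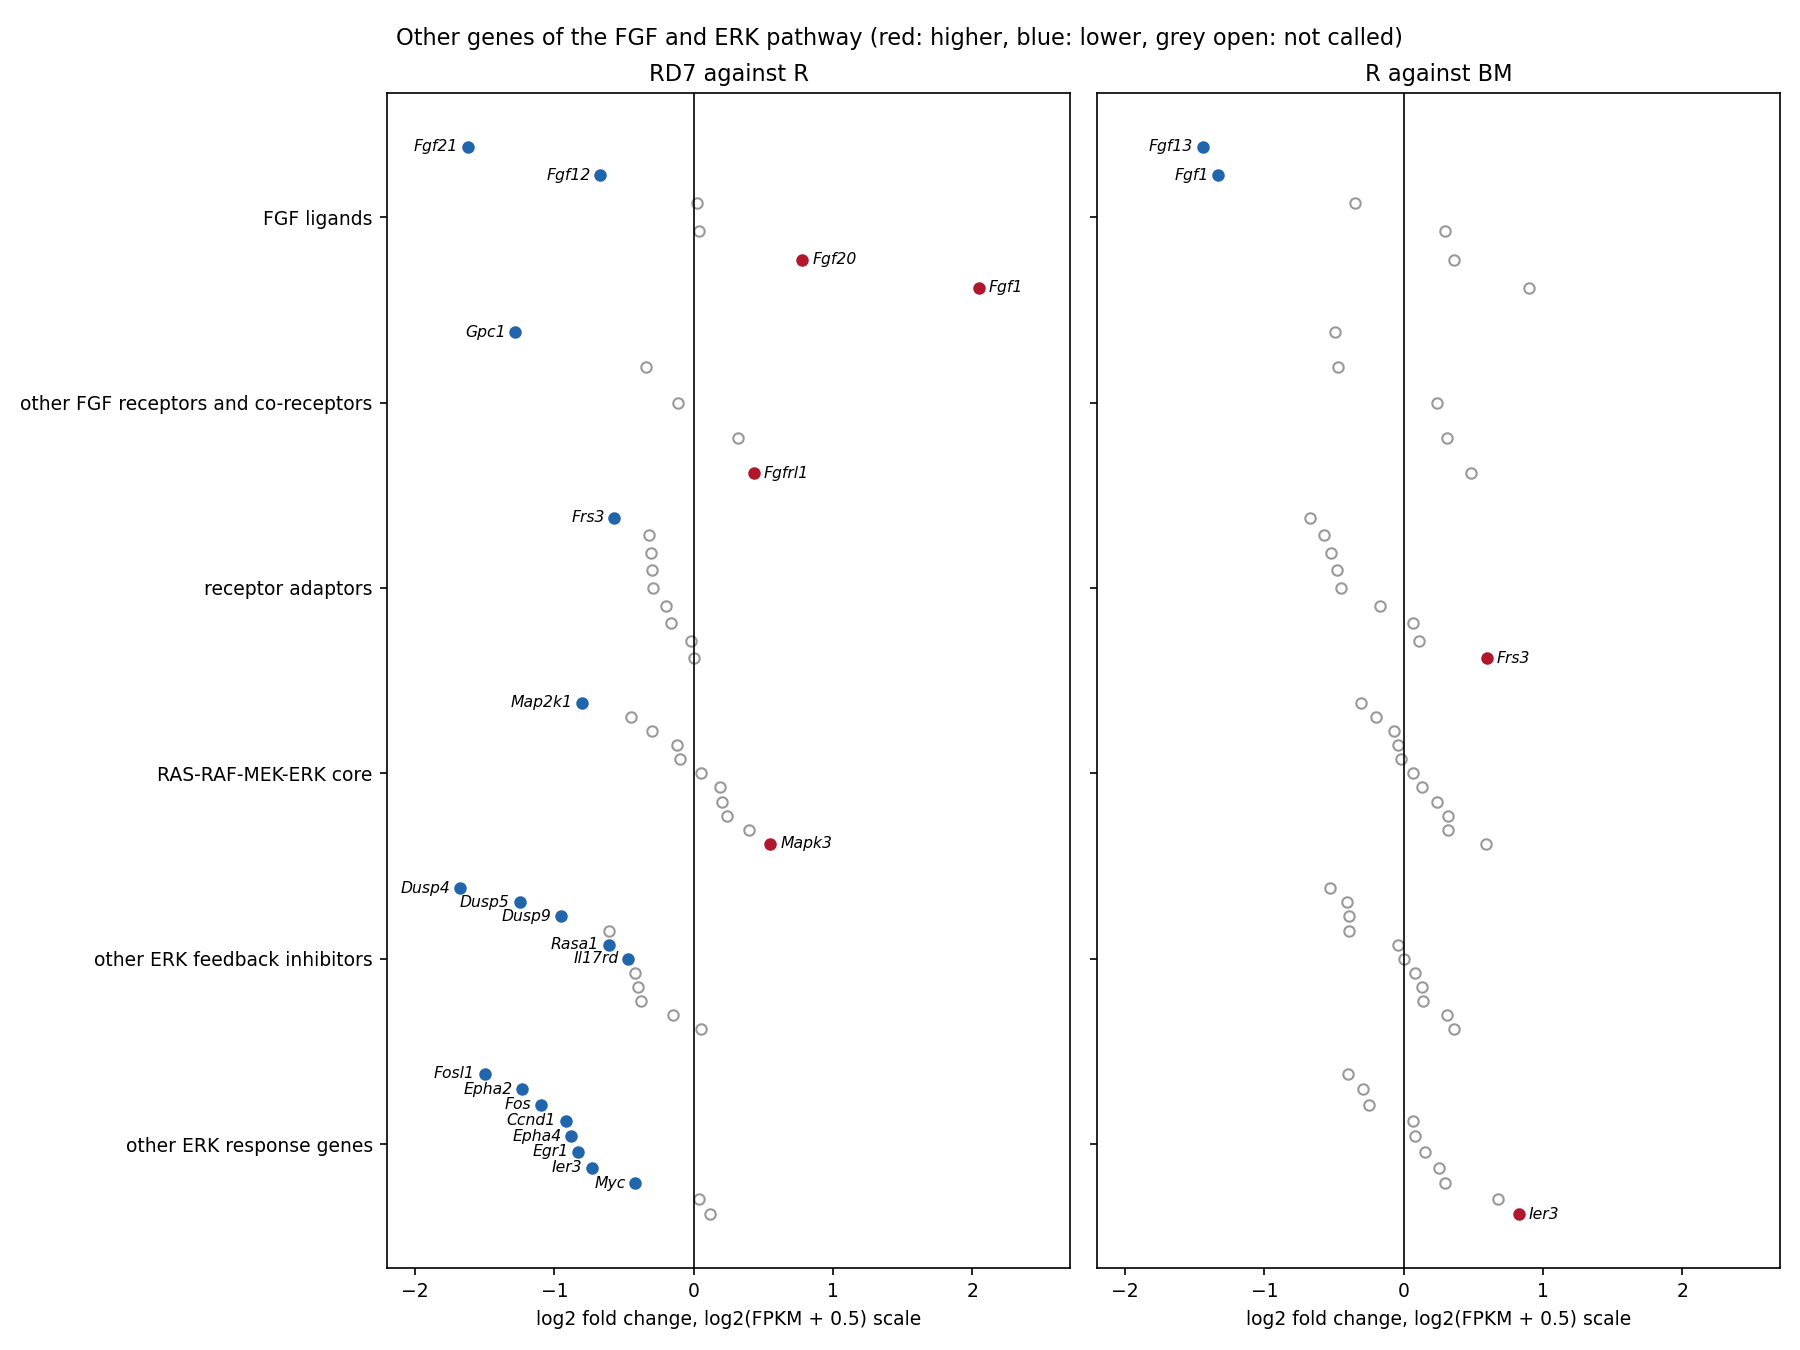
Log2 fold change (horizontal axes, log2(FPKM + 0.5) scale) of the tested genes of 6 pathway lists in RD7 against R (left) and R against BM (right), with 1 point per gene, red for called higher, blue for called lower and open grey for not called. In the bottom row, 8 of 10 ERK response genes are blue on the left and none is blue on the right. The lists were chosen with earlier results of these data known.

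The genes whose levels followed those of the set most closely were taken over the 9 libraries, which fall into 3 groups, so a high correlation says mainly that group levels are alike. Dusp6 was followed by Zfp763, Tnfaip2 and Tgfb3, with Pearson r of 0.994, 0.994 and 0.993. Tgfb3 averaged 0.808 FPKM in RD7, 8.79 in R and 10.1 in BM. Etv5 was followed by Hs6st1, a heparan sulfate sulfotransferase gene, at 0.993, by Slc35d1 at 0.992 and by the receptor tyrosine kinase gene Axl at 0.991. Etv4 was followed by Apcdd1, a Wnt inhibitor gene, at 0.982, by Pck2 at 0.977 and by Ehd1 at 0.975. Apcdd1 averaged 3.54 FPKM in RD7, 22.6 in R and 9.44 in BM. Fgfbp1 was followed by Pdlim1, Ypel3 and Itm2b, at 0.997, 0.996 and 0.994. Fgfr1 was followed by Clip2, Selenon and Rad54l, Fgfr2 by Timm29, Ercc5 and Trp63, and Fgfr3 by Manba, Fam151a and Fam189b, at 0.960 to 0.993. Spry1 was followed by Zfp618, Chpf and Vac14, Spry2 by Golt1b, Gm27640 and Gm27937, and Spry4 by Mcm9, Virma and Gli3, at 0.890 to 0.984.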

How the data were processed

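The deposited values are FPKM, 1 value for each of 49585 genes in each of 9 libraries, made by the authors from polyadenylated RNA amplified with a SMART-Seq kit, per the labels' protocols. Build GRCm38 and the tools STAR 2.6.1a, CASAVA 1.9, edgeR 3.24.1 and featureCounts are listed without roles, per the submitters' processing notes. The annotation release, strand setting and filters are not given in the sources used here. Symbols and coordinates come from GENCODE M21 (GRCm38), which held 99.5% of identifiers. Reads were read back from FPKM, gene length and the value of 1 read. They were whole within 0.01 with the GENCODE length for 22971 of 26813 genes above 0, and a length was fitted for 3840.

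A gene entered the test where 3 or more libraries reached 0.5 CPM, which left 15899 genes. They were fitted on log2(FPKM + 0.5) by limma 3.58.1 under R 4.3.3, using a mean for each group, 6 residual degrees of freedom and empirical Bayes with trend and robust settings. The fit was also run on simulated data, which held no length trend between libraries and so cannot show how the fit behaves under that trend. Tables were made with numpy 2.4.6 and pandas 2.3.3 under Python 3.11.15, and plots with matplotlib 3.10.9. The 10 genes and the pathway lists were chosen with earlier results of these data known. All 10 genes, pathway genes called in some comparison, Axin2, Fkbp5 and, for each of the 10, the 3 tested genes of at least 1 FPKM with the highest Pearson correlation were to be named, and pathway genes that were not called and cell type markers were named after their values were seen. The motifs were chosen after the results were known. Amplified reads without molecular identifiers are not independent molecules.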

Additional observations from a re-analysis of the deposited data

How the results depend on the processing

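The 30 fold changes of the 10 genes were recomputed under 19 other settings, giving 570 values, of which 546 kept their direction and their side of the threshold. Calls were lost in 11 values, all in RD7 against BM. Of those, Fgfr1 was lost after removal of the length trend (limma adjusted p = 0.058), also with the replicate block added (0.086), Spry4 with both (0.052), and Etv4 without a filter on low values (0.056), with median-of-ratios scaling (0.062) and with the replicate block (0.057). The sign turned in 4 values, all of genes not called: Fgfr2 in R against BM (-0.01 without R 3 and -0.10 without BM 3, in a range of -0.10 to 0.25) and Spry2 in RD7 against BM (-0.07 with the length trend removed, with and without the replicate block). The cause was not tested.

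Leaving out 1 library, the number of the 10 genes called ranged from 4 to 5 in RD7 against R, from 1 to 4 in R against BM and from 4 to 8 in RD7 against BM. The number of all genes called ranged from 3185 to 5743 (4938 with all libraries), from 924 to 3395 (1588) and from 4827 to 8521 (7454). It was 3196 without R 2 and 3185 without R 3 in RD7 against R, 924 without R 1, 937 without R 2 and 3395 without BM 3 in R against BM, and 4827 without RD7 2 in RD7 against BM. In RD7 against R, 42.9% of calls were higher, against 54.1% with median-of-ratios scaling and 52.9% with the length trend removed. Libraries with the same number did not deviate together (correlations of -0.52 to 0.271 across genes), so the numbers are not taken as pairs. With the replicate block, 3885, 1160 and 6283 genes were called in RD7 against R, R against BM and RD7 against BM, and of the 10 genes 4, 1 and 5.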
